A study of Rattus norvegicus with 6 samples.

Results

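The genes described here act in the signals by which the lung endothelium sets the tone of vessels: the endothelin ligand Edn1 and its receptors Ednra and Ednrb, the nitric oxide synthase Nos3, the apelin ligand Apln and its receptor Aplnr, the angiotensin converting enzyme Ace and the caveolar coat protein Cav1. They were chosen by name, 9 in all, and 8 of them were read out of 16383 genes with values. Ptgis, the prostacyclin synthase gene, was not analysed here. Levels were described in 25547 single cells of rat lungs, in the capillary, arterial and venous kinds of endothelial cells (ECs), in mural cells and in the other cell classes.

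Lungs came from 3 bleomycin (BLM)-treated rats and 3 control rats, all Sprague Dawley rats of 8 to 10 weeks. Each BLM-treated rat had received 1 intratracheal dose of 5 mg/kg, and each control rat saline of the same volume. Both groups were killed on day 28, and a small piece of lung from each rat was digested into single cells. The cells were captured in microwells with barcoded beads of the BD Rhapsody system, and mRNA was counted as unique molecular identifiers (UMIs). BLM is an antitumour drug that injures the lung and is widely used to model fibrosis. The labels do not give the lobe, and 1 dose and 1 day were studied.

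Endothelin-1 is made mainly by ECs. Acting on the endothelin A receptor of smooth muscle it constricts vessels, whereas the endothelin B receptor of ECs releases nitric oxide and clears endothelin from the blood, a task in which the lung is prominent. Apelin acts through its receptor on ECs and takes part in vessel growth and relaxation, and in mice the capillary bed of the alveolus is shared by general capillary cells, which carry Aplnr, and aerocytes, which carry Apln and Ednrb. Nitric oxide made by Nos3 relaxes smooth muscle through cyclic GMP, Ace makes angiotensin II on the surface of lung capillaries, and Cav1 shapes the caveolae that hold Nos3 inactive.

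BLM-treated rats gave 3657, 7481 and 3871 cells and control rats 3372, 2568 and 4598, with 3860028 (control replicate 2) to 16598959 UMIs (BLM replicate 2) a rat. The median cell held 1253 to 1565 UMIs in BLM-treated rats and 1066 to 1840 in control rats. Some cell numbers, 314 in all, were found in more than 1 library. Cells were clustered without the 54 measured genes of the vascular tone lists, the members included, and a class carries a name from its markers ("EC" below stands for EC-like, and so on). All 13 endothelial markers were detected in the ECs of both groups. ECs made up 10.5%, 9.09% and 15.9% of the cells of BLM-treated rats (383, 680 and 617 cells) and 0.801%, 1.60% and 3.24% of the cells of control rats (27, 41 and 149 cells), so that levels in control ECs rest on few cells. The 13 markers summed to 11503 to 12412 CPM, the UMIs of a gene per 1000000 UMIs of the class in a rat, in ECs of BLM-treated rats and 15597 to 17708 CPM in those of control rats. Capillary cells numbered 177, 259 and 316 in BLM-treated rats and 13, 17 and 101 in control rats. Arterial cells numbered 41, 62 and 57 in BLM-treated rats and 5, 5 and 15 in control rats, and venous cells 26, 40 and 29 in BLM-treated rats and 3, 11 and 9 in control rats. The venous cells of control replicate 1, being only 3, were not used. No cluster of aerocytes stood apart, so capillary cells were not split further. The remaining ECs belonged to no kind and were counted only among all ECs. They lay in clusters led by Scgb3a2 and Scgb1a1 (369 cells), by Tagln and Tpm2 (121 cells) and by haemoglobin genes (117 cells). In further clusters of 58 and 46 cells, 70.7% and 69.6% of the cells held the leukocyte gene Ptprc.

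The capillary kind was made of different clusters in the 2 groups. In BLM-treated rats nearly all of it was 3 clusters, led by Rgs16 and Apold1 (290 cells), by Rbp7 and Gpihbp1 (258 cells) and by Nrip3 and Akap12 (207 cells), and in control rats nearly all of it was 1 cluster led by Gpx2, Cyp1a1 and Tmem100 (128 cells, 1 of them of a BLM-treated rat). These 4 clusters were called capillary because 8 to 10 capillary markers stood at least 2-fold above their levels in the arterial and venous cells. In addition, at most 1 marker of another class was among their top 10 genes. The clusters without a kind led by Scgb3a2, Tagln or haemoglobin genes reached 8 or 9 such capillary markers, but held 2 or 3 markers of another class. Against all other ECs at most 2 markers of the closest list of any of the 4 capillary clusters stood at least 2-fold higher. A difference within the capillary kind is thus a difference between these clusters, and a change of state and a change in the mix of capillary cells cannot be told apart. Transcripts of other cells moved with the groups too. In capillary cells 8 leukocyte genes summed to 225 to 510 CPM in BLM-treated rats and 491 to 740 CPM in control rats, and 4 genes of alveolar type 2 cells to 80.5 to 99.4 CPM in BLM-treated rats and 135 to 719 CPM in control rats. Their part in the results below was not tested for the alveolar genes, and without the cells that held at least 2 leukocyte UMIs the same 4 members were called in capillary cells.

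Aplnr, Apln, Ace and Nos3 were mostly endothelial in BLM-treated lungs, whereas the endothelin receptors and Cav1 were spread over several classes. ECs held 97.2% of the Aplnr UMIs of BLM-treated rats (518 of 533, 95% exact interval 95.4 to 98.4) and 88.4% of those of control rats (206 of 233, 83.6 to 92.2). They held 80.8% of the Apln UMIs in BLM-treated rats and 87.5% in control rats, and 82.9% of the Ace UMIs in BLM-treated rats and 54.7% in control rats. The intervals here and below cover counting error only. For Edn1 and Nos3 the source differed between the groups: ECs held 58.8% of Edn1 UMIs in BLM-treated rats and 14.2% in control rats, where alveolar macrophages held 68.3% (26.3% in BLM-treated rats). ECs held 77.8% of Nos3 UMIs in BLM-treated rats and 23.6% in control rats, and alveolar macrophages 8.15% in BLM-treated rats and 47.8% in control rats. These shares follow the numbers of cells as well as the level per cell. Ednra UMIs lay in fibroblasts (67.8% in BLM-treated rats, 34.0% in control rats), mural cells (26.8% in BLM-treated rats, 20% in control rats) and an unnamed cluster marked by Cldn11 and Slitrk6 (3.65% in BLM-treated rats, 38.5% in control rats).

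**Figure D1:**
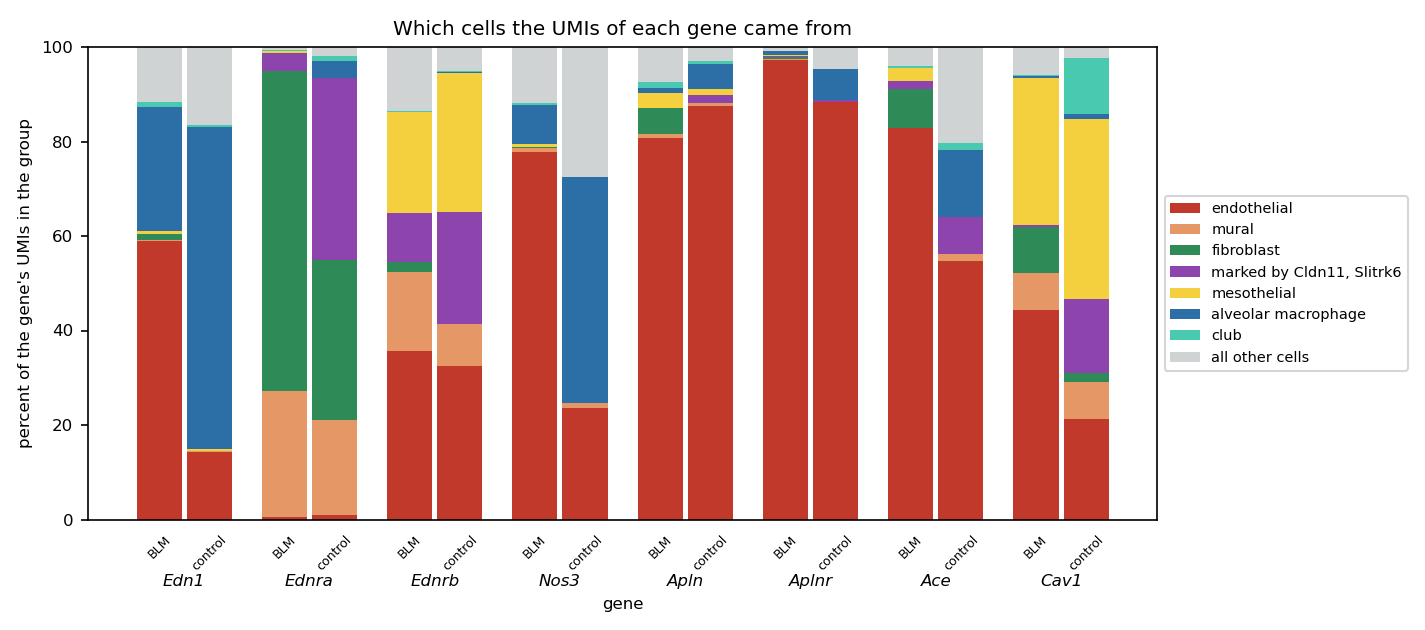
Share of each gene's UMIs (percent, y axis) that came from each cell class (colours), with the stacked bar of BLM-treated rats left of that of control rats for each gene (x axis). ECs take 97.2% of Aplnr UMIs in BLM-treated rats and 88.4% in control rats, and 58.8% of Edn1 UMIs in BLM-treated rats against 14.2% in control rats.

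Ranked by level per UMI over the 6 rats, each gene had its own order of classes. Edn1 stood at 224 ± 113 CPM (SD, n = 6) in ECs, and the next class, alveolar macrophages, at 25.6 ± 14.6 CPM, did not overlap with it in any rat. Nos3 (135 ± 28.6 CPM), Aplnr (448 ± 299 CPM) and Ace (94.0 ± 22.4 CPM) were also highest in ECs without overlap with the next class, which was monocytes for Nos3 (13.4 CPM) and the cluster marked by Cldn11 and Slitrk6 for Aplnr (3.23 CPM) and Ace (17.1 CPM). Apln stood at 198 ± 189 CPM in ECs and overlapped with the next class, a cluster led by Ccl21 and haemoglobin genes at 13.8 CPM. Cav1 was highest in mesothelial cells (2792 ± 420 CPM) and ECs (2314 ± 551 CPM), which overlapped, and both lay above mural cells (1224 ± 168 CPM) in every rat. Ednra stood at 349 ± 266 CPM in fibroblasts (n = 5), 293 ± 184 CPM in mural cells and 214 ± 72.1 CPM in the cluster marked by Cldn11 and Slitrk6, which overlapped, and at 7.73 CPM in ECs. The classes with the most Ednrb, the cluster marked by Cldn11 and Slitrk6 (382 ± 224 CPM), ECs (250 ± 155 CPM), mesothelial cells (235 ± 193 CPM) and mural cells (141 ± 106 CPM), all overlapped with their neighbours.

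**Figure D2:**
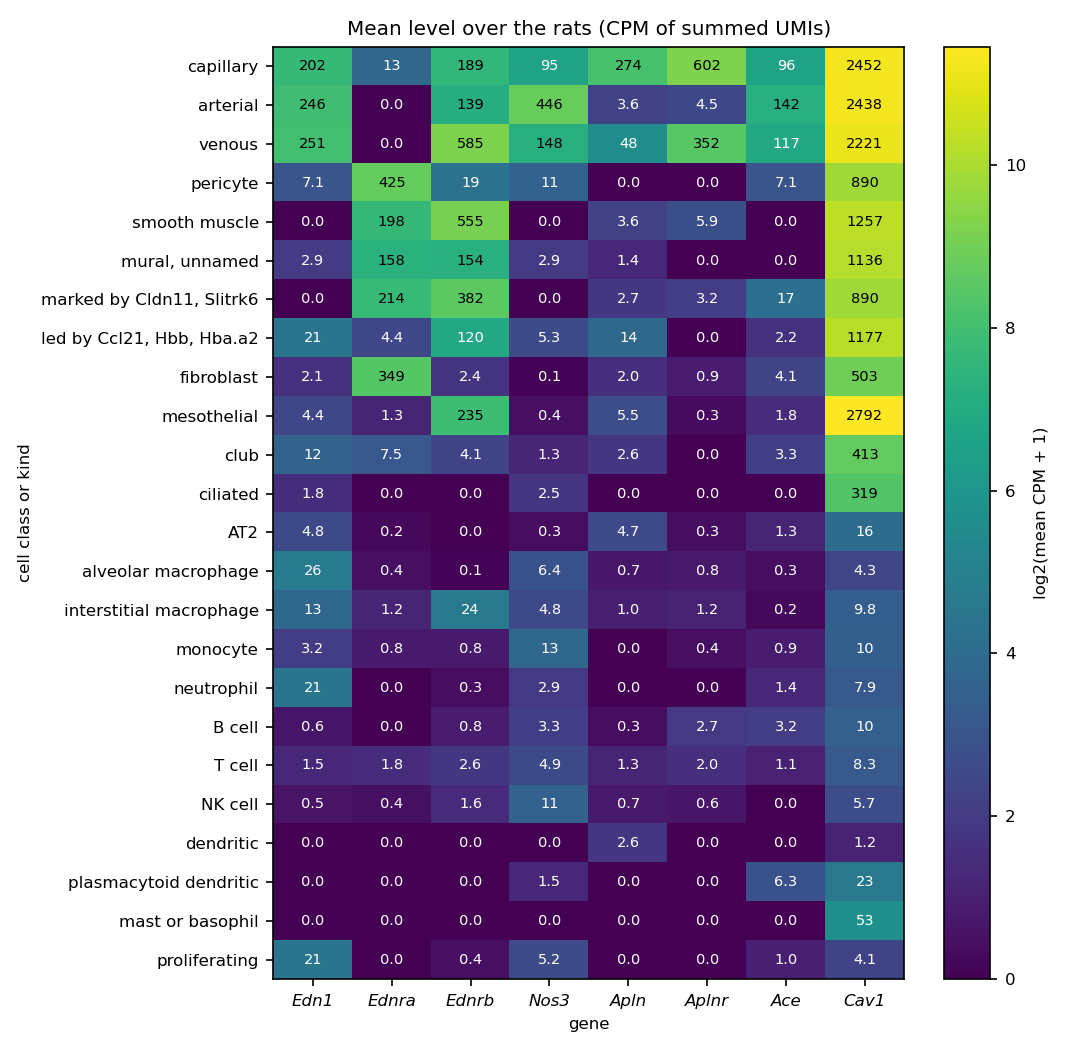
Mean level over the rats (CPM, printed in each field, colour on a log2 scale) of the 8 genes (columns) in each cell class and kind (rows), with the ECs shown as capillary, arterial and venous cells. Nos3 is highest in arterial cells (446 CPM), Aplnr in capillary cells (602 CPM) and Ednrb in venous cells, and Ednra lies in pericytes (425 CPM) and fibroblasts (349 CPM) rather than in ECs.

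Edn1, the precursor gene of endothelin-1, did not pass the test in any endothelial kind, with fold changes above 0 in each. In capillary cells it had 161, 305 and 272 CPM in BLM-treated rats (52, 147 and 175 UMIs) and 270, 61.4 and 145 CPM in control rats (4, 2 and 21 UMIs). The ranges overlapped, because control replicate 1 lay within the BLM range. Its log2 fold change was 0.91 (SE 0.35), with an adjusted p of 0.0823. Every adjusted p comes from the quasi-likelihood test of edgeR on sums per rat, corrected after Benjamini and Hochberg over all genes of the comparison. It was 0.0311 without BLM replicate 1. In venous cells Edn1 had 367, 305 and 428 CPM in BLM-treated rats and 94.3 and 61.7 CPM in control rats (2 UMIs and 1 UMI). The 2 groups did not overlap there, and the log2 fold change of 2.22 (SE 0.71) had an adjusted p of 0.0723. In arterial cells it had 219, 353 and 194 CPM in BLM-treated rats and 535, 175 and 0 CPM in control rats, from 2 UMIs, 1 UMI and no UMI (log2 fold change 1.46, SE 0.88, adjusted p = 0.548). Over all ECs the log2 fold change was 0.96 (SE 0.33, adjusted p = 0.112). With no filter on low counts the adjusted p was 0.0115 in ECs and 0.0257 in venous cells, and it was 0.0357 in ECs without control replicate 1. The 3 kinds did not hold a fixed order within rats: Edn1 was higher in arterial than in capillary cells in 4 of 6 rats, and higher in venous than in capillary cells in 3 of 5.

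Edn1 did change in alveolar macrophages. It had 23.9, 42.0 and 44.4 CPM in BLM-treated rats (63, 165 and 109 UMIs) and 12.1, 10.3 and 20.8 CPM in control rats (49, 15 and 147 UMIs). Every BLM-treated rat lay above every control rat, with a log2 fold change of 1.21 (SE 0.30, adjusted p = 0.0285), where 11.3% of the 9225 genes tested were called. The adjusted p was 0.114 without BLM replicate 2, 0.0851 without BLM replicate 3 and 0.112 without control replicate 1. In the same sums the 13 endothelial markers stood at 70.0 to 80.5 CPM in BLM-treated rats and 21.3 to 43.8 CPM in control rats, and their part in the result was not tested.

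The promoters of 7 of the 8 members were found in RefSeq (build GRCr8, not the build named for the counts), as windows of 250 bases before to 50 bases after the annotated start. Of these, 3 are shown, for the members whose levels the text turns on. Capitals mark 5 motifs that were searched on both strands, namely the TATA box with the letters TATAAA, the GATA motif with the letters AGATAA, the AP-1 motif with the letters TGACTNA, the hypoxia response core with the letters ACGTG and the GC box with the letters GGGCGG. The Edn1 window, on the minus strand at chr17:22666638-22666937, holds 4 of them, none overlapping another. The GATA motif starts at -214 and the hypoxia response core at -201, both on the other strand, and the AP-1 motif starts at -186 and the TATA box at -110. The Apln window, on the minus strand at chrX:132091197-132091496, holds 2 GC boxes, 1 on each strand, at -147 and -102, and the Ednrb window, on the minus strand at chr15:87086716-87087015, holds no match to these letters. Of 33469 rat windows of the same length, 14.2% hold the TATA box, 11.6% the GATA motif, 13.5% the AP-1 motif, 19.3% the hypoxia response core and 33.1% the GC box.
Edn1: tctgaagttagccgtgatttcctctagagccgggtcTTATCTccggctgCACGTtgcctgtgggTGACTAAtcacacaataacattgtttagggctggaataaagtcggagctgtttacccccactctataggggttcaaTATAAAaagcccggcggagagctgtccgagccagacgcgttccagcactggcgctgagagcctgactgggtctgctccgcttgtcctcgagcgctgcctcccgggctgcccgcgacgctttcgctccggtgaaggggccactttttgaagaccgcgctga
Apln: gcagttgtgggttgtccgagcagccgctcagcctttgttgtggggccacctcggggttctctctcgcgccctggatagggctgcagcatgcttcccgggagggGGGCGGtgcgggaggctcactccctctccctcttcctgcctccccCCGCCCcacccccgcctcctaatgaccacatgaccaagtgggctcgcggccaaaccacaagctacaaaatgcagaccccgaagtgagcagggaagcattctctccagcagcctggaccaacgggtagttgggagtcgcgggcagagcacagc
Ednrb: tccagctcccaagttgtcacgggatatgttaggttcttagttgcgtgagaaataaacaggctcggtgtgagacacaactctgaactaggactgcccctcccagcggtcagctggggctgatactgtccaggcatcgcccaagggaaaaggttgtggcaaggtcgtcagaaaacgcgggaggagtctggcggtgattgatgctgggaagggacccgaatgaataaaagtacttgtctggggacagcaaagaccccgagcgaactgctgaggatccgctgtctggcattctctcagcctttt

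Ednra, the receptor through which endothelin contracts smooth muscle, did not pass the test in mural cells. It had 215, 164 and 260 CPM in mural cells of BLM-treated rats (81, 53 and 108 UMIs) and 658, 276 and 183 CPM in those of control rats (5, 14 and 21 UMIs). The groups overlapped, and the log2 fold change of -0.11 (SE 0.35) had a 95% interval of -0.79 to 0.57 and an adjusted p of 0.955. Mural cells were 211, 235 and 223 in BLM-treated rats and 6, 25 and 56 in control rats. Only 1 mural cluster was called pericytes, the mural cells of capillaries (101 cells, 7 of 9 markers at least 2-fold above the other mural cells), and 1 smooth muscle cells (69 cells, 4 of 7 markers). The rest, with 189, 201 and 182 cells in BLM-treated rats and 0, 1 and 13 in control rats, was left unnamed. A comparison of mural cells thus also sets different clusters against each other. A change of state and a change in the mix of mural cells cannot be told apart there. Pericytes had more Ednra than smooth muscle cells in 5 of 5 rats with at least 5 cells of each, with 425 CPM against 198 CPM as means over rats, from 56 and 27 UMIs in all. In fibroblasts Ednra had 216, 126 and 227 CPM in BLM-treated rats and 377 and 797 CPM in control rats (15 and 48 UMIs). All 3 BLM-treated rats lay below both control rats, control replicate 1 having only 3 such cells, and the log2 fold change of -1.47 (SE 0.38) had an adjusted p of 0.0997, where 1.24% of 7526 genes were called. That value was 0.0196 without BLM replicate 3, 0.00206 with no filter on low counts and 0.0140 with the replicate number as a block.

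Ednrb, the endothelin receptor of ECs, fell in sums over all ECs. It had 168, 134 and 125 CPM in ECs of BLM-treated rats (111, 150 and 135 UMIs) and 190, 499 and 384 CPM in those of control rats (5, 34 and 90 UMIs). The groups did not overlap, and the log2 fold change was -1.36 (SE 0.26, adjusted p = 0.00401). The adjusted p was 0.0733 without control replicate 3, the control rat with the most ECs. Venous cells held 60 of the 396 Ednrb UMIs of ECs in BLM-treated rats. They held 38 of 129 in control rats, counting the 2 control rats with enough venous cells. The mix of kinds thus differed between the groups, and its part in the fall was not tested. In ECs 3 of the 7 members tested were called, all lower in BLM-treated rats, where 6.37% of 6126 genes were called and 2.56% were called lower. The 8 leukocyte genes summed to 802 to 3969 CPM in ECs of BLM-treated rats and 1327 to 10473 CPM in those of control rats, and without the cells that held at least 2 leukocyte UMIs these 3 members were still called.

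Venous ECs carried the most Ednrb of the 3 kinds in every rat with enough cells, above capillary cells in 5 of 5 and above arterial cells in 5 of 5. They had 284, 319 and 268 CPM in BLM-treated rats (17, 23 and 20 UMIs) and 943 and 1111 CPM in control rats (20 and 18 UMIs). The log2 fold change of -1.74 (SE 0.40, adjusted p = 0.00542) made Ednrb the only member called in venous cells, 1 of 6 tested, where 3.99% of 1579 genes were called. The adjusted p was 0.0763 without control replicate 2 and 0.0657 without control replicate 3, each of which leaves 1 control rat assumed to vary like the others, 0.115 with kinds set by marker UMIs and 0.173 with no filter. In capillary cells Ednrb had 167, 141 and 106 CPM in BLM-treated rats and 202, 123 and 394 CPM in control rats, from 3, 4 and 57 UMIs. These ranges overlapped. The log2 fold change of -1.13 (SE 0.30, adjusted p = 0.00477) became 0.19 (adjusted p = 0.927) without control replicate 3. The adjusted p was 0.0677 without BLM replicate 3, 0.0669 with the replicate number as a block, 0.132 with no filter and 0.354 with DESeq2.

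Outside the endothelium Ednrb took the other direction in the unnamed cluster marked by Cldn11 and Slitrk6, which also carried Wnt5a. It had 254, 669 and 646 CPM there in BLM-treated rats (7, 63 and 46 UMIs) and 146, 219 and 357 CPM in control rats (8, 19 and 67 UMIs). The ranges overlapped in BLM replicate 1 and control replicate 3, and the log2 fold change was 1.16 (SE 0.32, adjusted p = 0.0233), in a cluster where 5.29% of 1684 genes were called. The adjusted p was 0.220 without BLM replicate 2, 0.101 without BLM replicate 3, 0.161 without control replicate 1, 0.0690 without control replicate 2 and 0.0699 with no filter. In every rat Ednrb was higher in this cluster than in mural cells (6 of 6). Among mural cells it was higher in smooth muscle cells than in pericytes in 5 of 5 rats, the reverse of Ednra. Smooth muscle cells had 511, 643 and 1030 CPM in BLM-treated rats (6, 8 and 35 UMIs) and 163 and 430 CPM in control rats (4 and 24 UMIs), from 6 to 26 cells a rat, and pericytes at most 1 UMI a rat. The log2 fold change in smooth muscle cells was 1.26 (SE 0.48, adjusted p = 0.255). In all mural cells Ednrb had 95.4, 117 and 275 CPM in BLM-treated rats and 0, 98.6 and 261 CPM in control rats (log2 fold change -0.14, SE 0.37, adjusted p = 0.943). In mesothelial cells it had 216, 61.0 and 114 CPM in BLM-treated rats and 370, 555 and 93.3 CPM in control rats (log2 fold change -1.49, SE 0.51, adjusted p = 0.171), where 2.17% of 3690 genes were called, and with no filter the adjusted p was 2.65e-04.

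Aplnr, the apelin receptor, fell in capillary cells. It had 300.5, 127 and 246 CPM in capillary cells of BLM-treated rats (97, 61 and 158 UMIs) and 1213, 1044 and 684 CPM in those of control rats (18, 34 and 99 UMIs). Every BLM-treated rat lay below every control rat, with means of 224 ± 88.9 CPM in BLM-treated rats and 981 ± 270 CPM in control rats (SD, n = 3 each) and a log2 fold change of -1.86 (SE 0.26, adjusted p = 3.64e-08). In capillary cells 4 of 7 members tested were called, 1 higher and 3 lower in BLM-treated rats, where 11.8% of 4273 genes were called, 6.76% higher and 5.01% lower. Aplnr was called without any 1 of the 6 rats (log2 fold changes from -2.12 to -1.59) and by DESeq2. The 3 capillary clusters of BLM-treated rats were each low: 205, 91.7 and 188 CPM in the one led by Rgs16, 495, 169 and 263 CPM in the one led by Rbp7 and Gpihbp1, and 363, 143 and 322 CPM in the one led by Nrip3. In the control cluster led by Gpx2, Aplnr had 1213, 1044 and 661 CPM.

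Aplnr was nearly absent from arterial cells, at a mean of 4.54 CPM over rats against 602 CPM in capillary cells and 352 CPM in venous cells, and was lower there than in capillary cells in 6 of 6 rats. In venous cells it had 234, 180 and 120 CPM in BLM-treated rats and 236 and 988 CPM in control rats, so that all BLM-treated rats lay below both control rats, by a small margin for BLM replicate 1 (log2 fold change -1.64, SE 0.53, adjusted p = 0.0764). The adjusted p was 0.0171 without BLM replicate 1 and 0.0322 without control replicate 2. Over all ECs its log2 fold change was -1.75 (SE 0.26, adjusted p = 7.12e-04).

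Apln, the apelin ligand gene, fell with its receptor in capillary cells. It had 18.6, 85.1 and 168 CPM in capillary cells of BLM-treated rats (6, 41 and 108 UMIs) and 135, 461 and 774 CPM in those of control rats (2, 15 and 112 UMIs). The ranges overlapped by 1 pair, BLM replicate 3 lying above control replicate 1, whose value rests on 2 UMIs. The log2 fold change was -2.51 (SE 0.31, adjusted p = 7.28e-10) and stayed past the threshold without any 1 rat (from -3.31 to -1.49). With DESeq2 it was -2.27 with an adjusted p of 0.211. Within BLM-treated rats Apln was lowest in the capillary cluster led by Rgs16 (10.5, 25.0 and 41.2 CPM) and higher in those led by Rbp7 (43.7, 133 and 198 CPM) and Nrip3 (15.8, 170 and 367 CPM). Apln was higher in capillary than in arterial cells in 6 of 6 rats and than in venous cells in 4 of 5. Over all ECs it had 19.6, 45.4 and 131 CPM in BLM-treated rats and 152, 323 and 516 CPM in control rats, without overlap (log2 fold change -2.45, SE 0.49, adjusted p = 0.00556), and its adjusted p was 0.245 without control replicate 3.

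**Figure D3:**
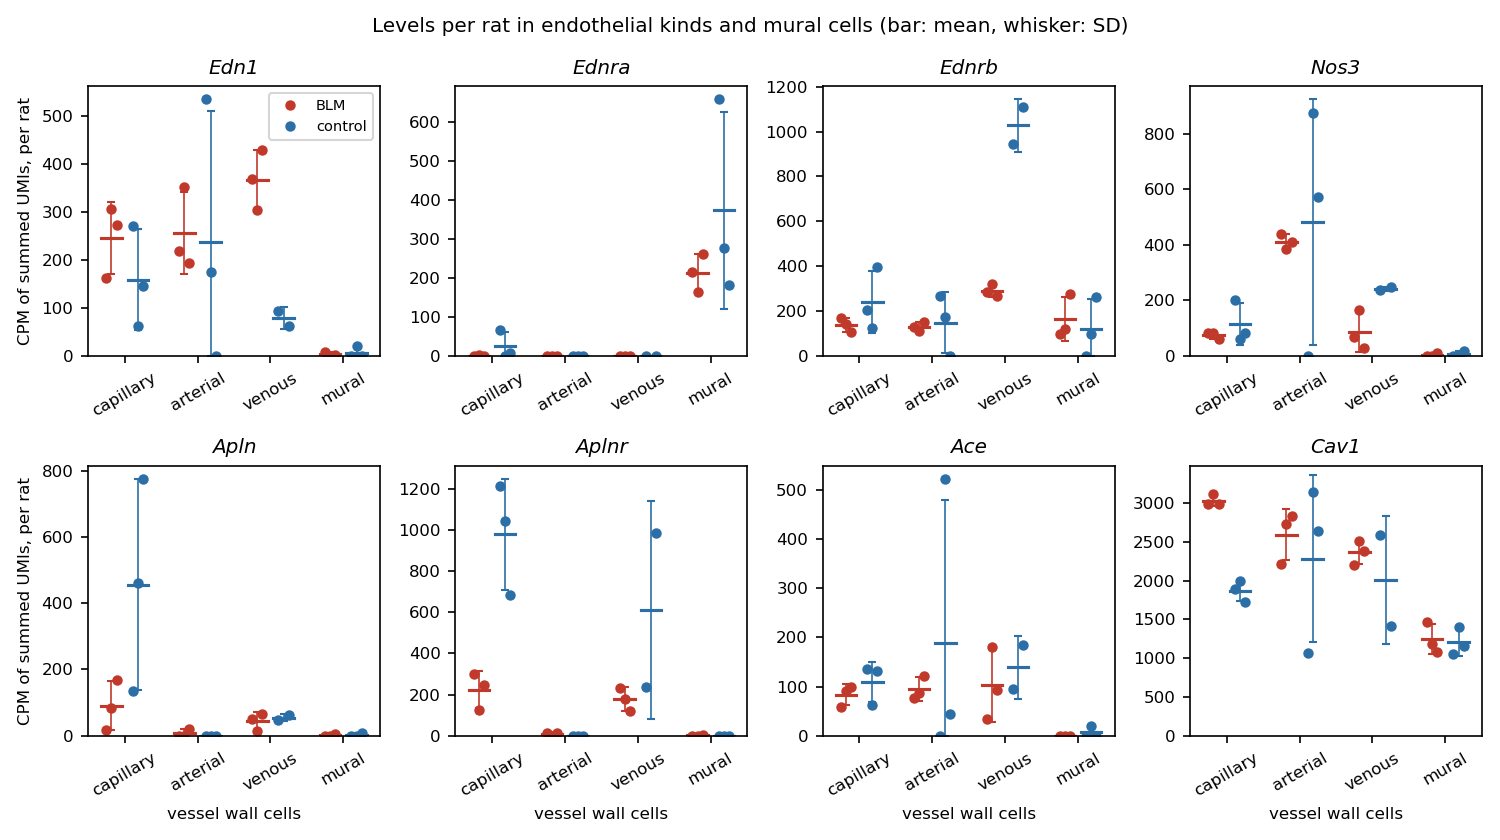
Level of each gene (CPM, y axis of each panel) in capillary, arterial, venous and mural cells, with BLM-treated rats to the left of control rats. Points are rats, bars their mean and whiskers the SD. Aplnr in capillary cells lies between 127 and 300.5 CPM in BLM-treated rats and between 684 and 1213 CPM in control rats, and Cav1 between 2986 and 3120 CPM in BLM-treated rats and between 1729 and 1997 CPM in control rats.

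Which capillary cells carried Apln, Aplnr and Ednrb was read from the cells with a UMI of each. Among 131 capillary cells of control rats, 36 had an Apln UMI, 68 an Aplnr UMI and 25 an Ednrb UMI. Ednrb was found in 44.4% of the cells with Apln and in 9.47% of those without it, with 16 cells holding both. It was found in 8.82% of the cells with Aplnr and in 30.2% of those without it, with 6 cells holding both. Car4, an aerocyte marker in mice, was found in 69.4% of the cells with Apln and in 23.2% of those without it, and in 32.4% of the cells with Aplnr and in 39.7% of those without it. Most of these cells, 101 of 131, came from 1 rat.

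Among 752 capillary cells of BLM-treated rats, 70 had an Apln UMI, 216 an Aplnr UMI and 129 an Ednrb UMI. Ednrb was found in 15.7% of the cells with Apln and in 17.3% of those without it, and in 20.4% of the cells with Aplnr and 15.9% of those without it. Car4 was found in 21.4% of the cells with Apln and in 11.6% of those without it, and in 19.0% of the cells with Aplnr and 9.89% of those without it. Gpihbp1, a marker of general capillary cells, was found in 50% of the cells with Apln and 30.8% of those without it in BLM-treated rats, and in 8.33% of the cells with Apln and 8.42% of those without it in control rats. By Aplnr, Gpihbp1 was found in 43.5% of the cells with Aplnr and 28.2% of those without it in BLM-treated rats, and in 8.82% of the cells with Aplnr and 7.94% of those without it in control rats. In control rats these shares rest on few cells: 11 of 131 held Gpihbp1, 3 of them with Apln and 6 with Aplnr. In BLM-treated rats 245 of 752 held it, 35 with Apln and 94 with Aplnr. Other markers of these kinds are not given here. With and without Apln, the shares of Ednrb and Car4 thus lay closer together in BLM-treated rats than in control rats and those of Gpihbp1 further apart, and Car4 was more frequent with Aplnr in BLM-treated rats and less frequent with it in control rats. Pairs of UMIs in 1 cell also follow the depth of the cell, and the difference between the groups was not tested.

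To compare shares at 1 depth, each cell was thinned to 500 UMIs, which left out 2, 5 and 4 shallower capillary cells of BLM-treated rats and 1, 1 and 8 of control rats. Aplnr was then found in 13.1%, 9.06% and 10.3% of capillary cells of BLM-treated rats and in 50%, 37.5% and 24.7% of those of control rats. Apln was found in 2.99% ± 1.40 of the cells in BLM-treated rats and 15.1% ± 5.88 in control rats, and Cav1 in 73.9% ± 2.18 in BLM-treated rats and 53.3% ± 4.42 in control rats (SD, n = 3 each). These 3 genes did not overlap between the groups, nor did Ednrb (5.69% ± 0.229 in BLM-treated rats and 11.3% ± 7.04 in control rats), each with p = 0.1 by a two-sided exact permutation test, the smallest p that 3 rats against 3 allow. The share of all genes without overlap at this depth is not given here. The number of such members thus has no background to be read against. Edn1 was found in 12.1% ± 3.54 of the cells in BLM-treated rats and 5.94% ± 2.57 in control rats, with overlap (exact permutation p = 0.2). Thinned to 300 UMIs, Cav1 overlapped, and thinned to 1000 UMIs, Cav1 and Ednrb did, whereas Apln and Aplnr overlapped at neither depth. Before thinning Aplnr was found in 37.3%, 18.5% and 32.3% of capillary cells of BLM-treated rats and in 46.2%, 64.7% and 50.5% of those of control rats. Thinned to 500 UMIs, B cells, which should lack these genes, had shares of at most 0.644% in either group. At 1000 UMIs Cav1 was found in 5.02% ± 1.88 of B cells in BLM-treated rats and 0% in control rats, without overlap. The other members reached at most 1.52% there. At 300 UMIs the shares of Cav1 were 0.495% in BLM-treated rats and 0% in control rats, also without overlap. The part of this background in the Cav1 shares of capillary cells was not tested.

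**Figure D4:**
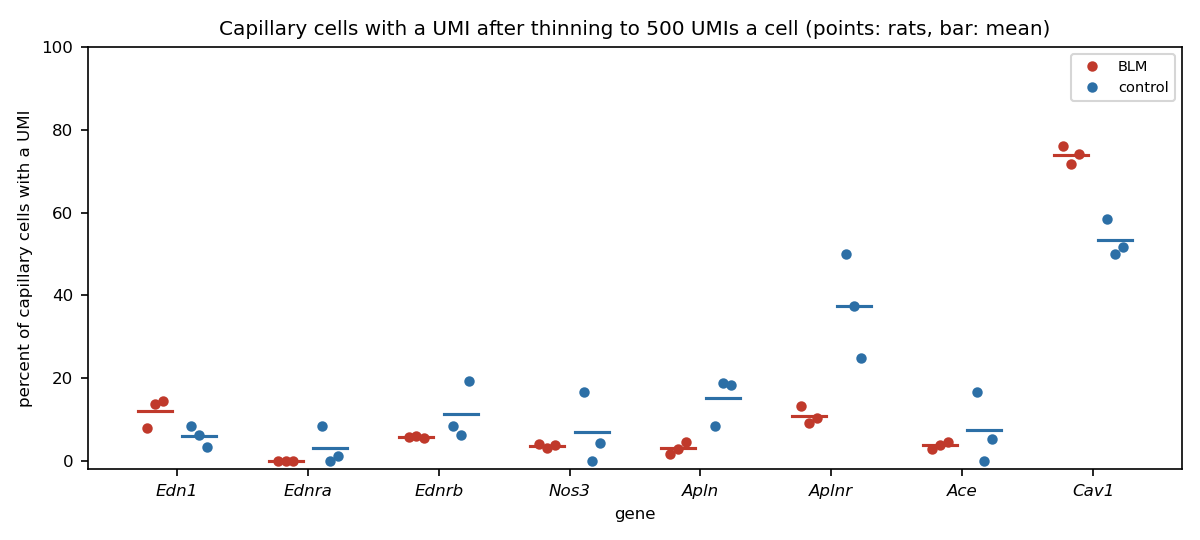
Share of capillary cells with at least 1 UMI of each gene (percent, y axis) after thinning every cell to 500 UMIs, with BLM-treated rats to the left of control rats. Points are rats and bars their mean. Aplnr lies between 9.06% and 13.1% in BLM-treated rats and between 24.7% and 50% in control rats.

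Nos3, the endothelial nitric oxide synthase, was highest in arterial cells and did not pass the test in any endothelial kind. Arterial cells had more Nos3 than capillary cells in 5 of 6 rats and more than venous cells in 5 of 5, with means over rats of 446 CPM in arterial, 148 CPM in venous and 94.9 CPM in capillary cells. In arterial cells Nos3 had 438, 384 and 409 CPM in BLM-treated rats (34, 49 and 57 UMIs) and 0, 872 and 572 CPM in control rats (0, 5 and 13 UMIs). The 0 was read in 5 cells. The log2 fold change of -0.35 (SE 0.48) had an adjusted p of 0.826, in a comparison that called 0 of 3 members (0 also at an unadjusted p under 0.05) and 1.2% of 1001 genes, with few control cells. Over all ECs Nos3 had 127, 129 and 115 CPM in BLM-treated rats and 114, 191 and 136 CPM in control rats (log2 fold change -0.18, SE 0.26, 95% interval -0.69 to 0.34, adjusted p = 0.814).

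Ace, which makes angiotensin II, did not pass the test in ECs or in capillary cells. In ECs it had 51.3, 89.1 and 101 CPM in BLM-treated rats (34, 100 and 109 UMIs) and 114, 103 and 107 CPM in control rats (3, 7 and 25 UMIs). The 3 BLM-treated rats lay below the control rats, BLM replicate 3 by a narrow margin, and the log2 fold change of -0.29 (SE 0.35) had a 95% interval of -0.97 to 0.39 and an adjusted p of 0.744. In capillary cells it had 58.9, 91.3 and 99.4 CPM in BLM-treated rats and 135, 61.4 and 131 CPM in control rats, with overlap (log2 fold change -0.38, SE 0.41, adjusted p = 0.659). Ace had no fixed order among the 3 kinds, being higher in arterial than in capillary cells in 3 of 6 rats.

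Cav1, the coat protein of caveolae, rose in capillary cells. It had 2992, 3120 and 2986 CPM in BLM-treated rats (966, 1504 and 1922 UMIs) and 1888, 1997 and 1729 CPM in control rats (28, 65 and 250 UMIs). The groups did not overlap, and the log2 fold change of 0.84 (SE 0.23, adjusted p = 0.00757) was called without any 1 of the 6 rats (0.81 to 0.98) and by DESeq2. Over all ECs it was 0.70 (SE 0.21, adjusted p = 0.0622), with an adjusted p of 0.0136 by DESeq2, 0.00341 with no filter, 0.0379 without cells holding leukocyte UMIs and 0.0376 without control replicate 2. In arterial cells Cav1 had 2216, 2726 and 2832 CPM in BLM-treated rats and 1070, 3141 and 2640 CPM in control rats, and in venous cells 2204, 2507 and 2382 CPM in BLM-treated rats and 2594 and 1420 CPM in control rats. Both overlapped, with log2 fold changes of 0.22 (SE 0.40) and 0.27 (SE 0.33). In mural cells it had 1460, 1188 and 1085 CPM in BLM-treated rats and 1053, 1400 and 1157 CPM in control rats (log2 fold change 0.14, SE 0.31, adjusted p = 0.926), in a comparison that called 0 of 3 members (0 also at an unadjusted p under 0.05 and by DESeq2) and 6.4% of 4081 genes. Within mural cells the log2 fold change of Cav1 was -1.15 in smooth muscle cells (SE 0.33, adjusted p = 0.135). In pericytes it was 0.68 (SE 0.36, adjusted p = 0.455).

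Cav1 fell in a pair of other classes. In the cluster marked by Cldn11 and Slitrk6 it had 689, 499 and 379 CPM in BLM-treated rats and 1255, 1130 and 1385 CPM in control rats, without overlap (log2 fold change -1.29, SE 0.27, adjusted p = 0.00214). In the cluster of club cells, the secretory cells of the airway, it had 34.2, 58.9 and 141 CPM in BLM-treated rats (10, 19 and 29 UMIs) and 199, 872 and 1174 CPM in control rats (12, 39 and 274 UMIs). That log2 fold change was -3.37 (SE 0.60, adjusted p = 0.00516), where 4.82% of 3591 genes were called, and the adjusted p was 0.0870 without control replicate 3. The 5 markers of alveolar type 1 cells, which carry Cav1, summed in the same cluster to 680 to 1204 CPM in BLM-treated rats and 2353 to 9575 CPM in control rats, and their part in the result was not tested. At a finer clustering a cluster of alveolar type 1 cells stood apart, with 2, 4 and 6 cells in BLM-treated rats and 6, 12 and 41 in control rats. In mesothelial cells, where Cav1 was highest, it had 2558, 2292 and 2678 CPM in BLM-treated rats and 2868, 3539 and 2818 CPM in control rats. Those groups did not overlap, but the log2 fold change of -0.31 had an adjusted p of 0.564. Of the 19 other classes, most had no member past the filter on low counts. The 13 member tests lay in alveolar macrophages, fibroblasts, mesothelial, club and ciliated cells and the clusters marked by Cldn11 or led by Ccl21. Of these, 4 passed: Edn1 in alveolar macrophages, Cav1 in club cells, and Cav1 and Ednrb in the cluster marked by Cldn11 and Slitrk6. Of all genes tested, 11.3% were called in alveolar macrophages, 4.82% in club cells and 5.29% in the cluster marked by Cldn11. In mesothelial cells 2.17% and in fibroblasts 1.24% were called.

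**Figure D5:**
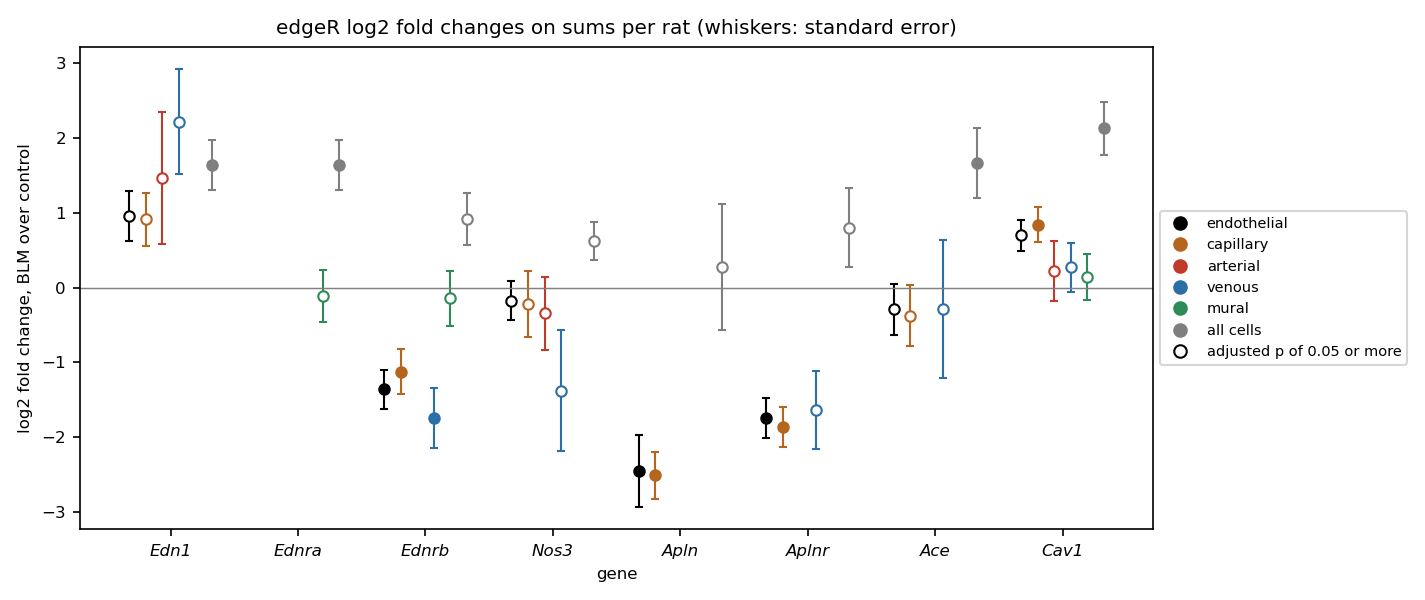
Log2 fold change of BLM-treated over control rats (y axis, whiskers its standard error) of each gene (x axis) in each comparison in which it was tested (colours). Filled points have an adjusted p under 0.05 and open points do not. In capillary cells Apln (-2.51), Aplnr (-1.86) and Ednrb (-1.13) lie below 0 and Cav1 (0.84) above it.

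Summed over all cells of a rat, the levels moved otherwise. Here fewer cells of a type and less RNA per cell cannot be told apart. Cav1 had 410, 411 and 884 CPM in BLM-treated rats and 86.2, 177 and 115 CPM in control rats (log2 fold change 2.13, SE 0.35, adjusted p = 0.00727). Edn1 had 30.2, 37.1 and 48.3 CPM in BLM-treated rats and 10.2, 6.74 and 16.9 CPM in control rats (1.64, SE 0.34, adjusted p = 0.0155, and 0.0520 without control replicate 1). Ednra (1.64, adjusted p = 0.0150) and Ace (1.67, adjusted p = 0.0463) were also called, Ace no longer so when any 1 rat other than BLM replicate 1 was left out (0.0795 to 0.134). These were 4 of 8 members, all higher in BLM-treated rats, where 17.4% of 13346 genes were called and 11.1% were called higher. Aplnr, lower in capillary cells, had 19.9, 8.25 and 26.8 CPM over all cells in BLM-treated rats and 3.83, 14.5 and 12.2 CPM in control rats (log2 fold change 0.80, adjusted p = 0.345). The share of ECs among the cells differed in the same sums, as given above.

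Whether the change in capillary cells differed from that in the larger vessels was tested as a difference of differences between capillary cells and arterial with venous cells. None of the 7 members passed (adjusted p from 0.773 to 1, lowest unadjusted p 0.156), where 1.18% of 3883 genes were called. The difference for Aplnr was -0.15 (95% interval -1.16 to 0.86) and that for Ednrb 0.28 (-0.60 to 1.15). For Apln it was -1.32 (-3.14 to 0.50), an interval that also holds the whole change seen in capillary cells. Between capillary cells and the cluster marked by Cldn11 and Slitrk6, a test chosen after the opposite directions were seen, the difference was 2.16 for Cav1 and -2.04 for Ednrb (adjusted p = 5.55e-06 and 2.83e-04), 2 of 6 members where 3.63% of 2835 genes were called. The 6 include Edn1, which had no UMI in that cluster. The difference for Ednrb had an adjusted p of 0.456 without control replicate 3 and 0.0696 without BLM replicate 3.

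The wider lists of vascular tone genes held 72 genes, 54 of them in the table. In capillary cells 24 were tested, of which 3 were higher and 8 lower in BLM-treated rats, and without the members 2 of 17 were higher and 5 lower. Of all 4273 genes tested there, 6.76% were called higher and 5.01% lower. The median log2 fold change of the 24 was -0.41, against 0.03 over all genes tested. Both genes of the apelin list and 2 of 3 of the endothelin list were lower. In the endothelin list these were Ednrb and Ece1, which cleaves the endothelin precursor, and Edn1 did not pass. Ece1 had 177, 268 and 204 CPM in BLM-treated rats and 944, 338 and 422 CPM in control rats (log2 fold change -1.01, SE 0.28, adjusted p = 0.00617). Of 6 genes of the nitric oxide list, Nostrin (-1.13), a trafficking factor of Nos3, and Ddah1 (-1.73), which degrades an inhibitor of Nos3, were lower.

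The caveola list split within capillary cells, with 2 of 7 higher and 1 lower (6.76% and 5.01% of all genes tested). Cavin3 had 493, 400 and 294 CPM in BLM-treated rats and 202, 123 and 118 CPM in control rats (log2 fold change 1.70, SE 0.35, adjusted p = 1.45e-04) and stood with Cav1, whereas Cavin2 fell (-1.26, adjusted p = 2.29e-05). In the adrenomedullin list the receptor gene Calcrl had 991, 1374 and 1325 CPM in BLM-treated rats and 4180, 2580 and 4390 CPM in control rats (-1.47, SE 0.23, adjusted p = 6.12e-07). Ramp3, 1 of the partners that turn Calcrl into an adrenomedullin receptor, had 80.5, 259 and 177 CPM in capillary cells of BLM-treated rats (265 UMIs). Those of control rats had no UMI, so that the level was at least 11.7-fold higher after BLM against a floor of 3 counts over the control group. Calcrl and Ramp3 thus moved in opposite directions. Ramp2, a more abundant partner, had means of 3178 CPM in BLM-treated rats and 4765 CPM in control rats. It did not pass (log2 fold change -0.45, SE 0.23, adjusted p = 0.249).

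Mural cells had 22 genes of the lists tested, 6 lower and 0 higher in BLM-treated rats by edgeR (2 higher at an unadjusted p under 0.05), with a median log2 fold change of -0.09 against 0.05 over all genes. Of all 4081 genes tested there, 6.4% were called in either direction. The mural clusters differed between the groups, as given above. Pde5a, which breaks down cyclic GMP, had 45, 102 and 96.4 CPM in BLM-treated rats and 395, 335 and 304 CPM in control rats (-1.90, SE 0.35, adjusted p = 6.74e-06). Gucy1a1, a subunit of the guanylate cyclase that nitric oxide activates, had 265, 340 and 460 CPM in BLM-treated rats and 263, 1262 and 1122 CPM in control rats (-1.48, SE 0.29, adjusted p = 3.56e-05), with overlap through control replicate 1, which had 6 mural cells. Ddah2 (-1.29), Tbxa2r (-1.60), Anpep (-1.07) and Cavin2 (-1.42) were the others. In the same mural sums 11 fibroblast markers stood at 1333 to 1766 CPM in BLM-treated rats and 4566 to 9085 CPM in control rats, and their part in these results was not tested. In venous cells 1 of 16 list genes was higher and 2 were lower, Ednrb and Calcrl (-1.58, adjusted p = 8.49e-04), and in arterial cells 0 of 12 passed the edgeR test, 0 also at an unadjusted p under 0.05. Of all genes tested, 3.99% were called in venous cells and 1.2% in arterial cells.

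The genes whose level over 25 classes and kinds was most like that of a member are given as a description with no p, since the points share libraries. Aplnr was closest to Cyp1a1 (Pearson's r of 0.94) and F11 (0.93), Apln to Slco2a1 (0.90), Edn1 to Ushbp1 (0.90), Nos3 to Cytl1 (0.82), Ace to Myrip (0.89), Ednrb to Galnt18 (0.88), and Cav1 to Cav2 (0.95), its partner in caveolae. Ednra was closest to Cntn2 and an uncharacterised gene (0.95 for both) and to Palm2 (0.94).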

How the data were processed

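Single cells of 6 rat lungs were read from 1 deposited table of whole UMI counts per gene and cell, made and left unnormalized by the authors. The build is mm9, a mouse build, in the processing notes of the submitters. The gene names include those of rats, such as RT1.Ba and RT1.Da, so the build the counts were made on is not settled by the notes. The aligner is not given in the sources used here. The header holds no name for the cell column, so values lie 1 field to the right of their gene name. Cell names carry codes N1 to N3 and F1 to F3, taken as control and BLM because the cells per letter sum to the group sizes the study states. The letters are not explained otherwise. All cells were kept, and no doublet caller was run.

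Counts were scaled to 10000 per cell, and 2000 variable genes, without the tone lists, were clustered with scanpy 1.11.5 (30 principal components, 15 neighbours, Leiden resolution 1.0), ECs and mural cells again on 20 components. Clusters were named where at least 3 markers of a list stood 2-fold above the other cells clustered. EC clusters this left unnamed were called capillary where at least 3 capillary markers stood 2-fold above the arterial and venous cells, with fewer than 2 markers of another class among the top 10 genes and Ptprc in at most 50% of cells. The naming rules were set after clusters were seen. For each rat, the UMIs of a class with at least 5 cells were added up and tested with edgeR 4.0.16 (filterByExpr, TMM, quasi-likelihood test, Benjamini-Hochberg, threshold 0.05) on R 4.3.3, after tests on simulated data. In these, a log2 change of 1 was found in 35.2% of the changed genes in ECs, 36.5% in capillary and 25.9% in mural cells. For a log2 change of 2 the shares were 91.7%, 93.7% and 90.9%. Unchanged genes gave 17, 3 and 1 false calls. Changes near a log2 of 1 can thus be missed. In ECs the false calls were a larger share of all calls than the 0.05 aimed at, so calls there can be false more often than that. A CPM value is a class's UMIs of a gene per 1000000 of its UMIs in a rat. The p-values of edgeR measure the spread between rats, with the spread of each gene drawn toward that of the other genes tested. They do not rest on the gene's own spread over 3 rats a group alone. Apln in capillary cells, with a wide spread between rats, passed by edgeR and not by DESeq2. The members and lists, and the rule to name all members, list genes past the threshold and the 3 genes most like each member, were set with earlier results of these data known. Alternatives were RLE size factors, no filter, DESeq2 1.42.0, a replicate block, each rat left out, cells without leukocyte UMIs or of at least 500 UMIs, kinds set by marker UMIs, resolutions 0.5 and 2.0, and the list genes kept in the clustering. An interaction test against the cluster marked by Cldn11 and Slitrk6, and capillary cells with 2 unnamed clusters added, were chosen after seeing the data.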

Additional observations from a re-analysis of the deposited data

Results flagged for a closer look

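The change of Cav1 and Ednrb after BLM differed between capillary ECs and the unnamed cluster marked by Cldn11 and Slitrk6. The test was chosen after opposite directions were seen in the same data, so its p-values are no independent support. For Cav1 the log2 fold change in capillary cells minus that in the cluster was 2.16 (SE 0.39, adjusted p = 5.55e-06 by the quasi-likelihood test of edgeR, corrected after Benjamini and Hochberg), higher in capillary cells and lower in the cluster of BLM-treated rats, with no overlap between the groups in either. For Ednrb it was -2.04 (SE 0.44, adjusted p = 2.83e-04), and the adjusted p was 0.0696 without BLM replicate 3, 0.456 without control replicate 3 and 0.240 with no filter. Of 6 members tested 2 were called, where 3.63% of 2835 genes were called. The 6 include Edn1, which had no UMI in the cluster, so that its difference could not be estimated.

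All BLM-treated rats lay below all control rats for Cav1 in club cells (log2 fold change -3.37) and in mesothelial cells (-0.31), and above them in capillary cells. The difference between these classes and capillary cells was not tested.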

How the results depend on the processing

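Among members' values set against an alternative, 519 kept direction and side of the threshold, 30 lost the call, 16 gained it and 38 changed sign. With no filter, 608 genes were called in ECs (390 with it), 19 in arterial (12) and 107 in venous cells (63), 28 in the interaction of capillary with arterial and venous cells (46), and 8 members in other classes (4). DESeq2 called 313 genes in capillary (503), 37 in venous and 120 in mural cells (261). Kinds set by marker UMIs gave 31 arterial, 13 venous and 29 interaction calls. Cells of at least 500 UMIs gave 0 arterial calls, and list genes kept in the clustering gave 2. Leaving out 1 rat gave 227 to 353 calls in ECs, 284 to 493 in capillary, 0 to 15 in arterial, 19 to 74 in venous and 125 to 222 in mural cells, 1181 to 2328 over all cells, 13 to 38 in the interaction and 2 to 4 members in other classes. Thinned to 300 UMIs, 5 members had shares in ECs that did not overlap (2 at 500 UMIs), and 2 to 5 with 1 rat left out. The share of all genes without overlap is not given here, so these counts have no background.

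Same-numbered rats of the 2 groups showed no clear joint deviation (correlations from -0.136 to 0.102). With 3 rats a group this check cannot settle whether the replicate numbers pair the rats, and the main test did not pair them. With the replicate block 131 genes were called in mural cells, 263 in ECs and 365 in capillary cells. The block also turned Ace in venous cells to 0.082 and Ednrb in mural cells to 0.27 (log2).

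The sign changes concern values that did not pass the main test, except Ednrb in capillary cells, which passed it (-1.32 to 0.19 with 1 rat left out). With no filter, Nos3 became 0.0039 in capillary, 0.45 in arterial cells and -0.019 in the interaction, Ace 0.18 in venous cells, and Ednra 0.086 and Ednrb 0.049 in mural cells. DESeq2 gave 0.11 for Ednrb in mural cells. With list genes kept in the clustering Nos3 was 0.21 in capillary cells, with kinds by marker UMIs Cav1 was -0.22 in venous cells and Nos3 -0.30 in the interaction, and with cells of at least 500 UMIs Nos3 was -0.053 there. With 1 rat left out, Ace ranged from -0.54 to 0.34 in capillary and from -0.63 to 0.25 in venous cells, Cav1 from -0.023 to 0.92 in venous cells, Nos3 from -0.45 to 0.41 in arterial cells, Ednra from -0.37 to 0.067 and Ednrb from -0.75 to 1.21 in mural cells, and Apln from -0.88 to 1.10 over all cells. In the interaction Edn1 ranged from -1.34 to 0.27, Ednrb from -0.37 to 1.44, Nos3 from -0.74 to 0.39, Aplnr from -1.52 to 0.23 and Ace from -0.94 to 0.34. The cause of these moves was not tested. Depth limits the control side: control arterial and venous cells held few UMIs of most members.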
